A study of Homo sapiens with 4 samples.

Results

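SAMD9, SAMD9L, SAMHD1 and the Schlafen genes SLFN5, SLFN11, SLFN12 and SLFN13, 7 genes whose products restrict viruses or act on nucleotide pools and tRNA, were followed in HT-29 colon cancer cells that expressed TRIM40. They were chosen by gene symbol from the transcript tables of both experiments, and their 22 transcripts were summed to the 7 genes, out of 63714 transcripts and 27685 genes in all. HT-29 is an established human line from a colon adenocarcinoma, grown here in RPMI with fetal bovine serum and with no treatment listed in the labels. One group carried a control vector and had no transgene. The other stably expressed TRIM40, a ubiquitin ligase of the TRIM family, with an N-terminal Myc tag, introduced by a retroviral vector and drug selection, and is called Myc-TRIM40. There were 4 libraries from 2 experiments, each with 1 control and 1 Myc-TRIM40 library. A single cell line was used, and the sources used here do not say whether the Myc-TRIM40 cells were a pool or a clone.

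SAMD9 and its neighbour SAMD9L encode large cytoplasmic proteins that are induced by interferon, block the replication of poxviruses and restrain cell growth. SAMHD1 breaks down deoxynucleoside triphosphates (dNTPs) and thereby starves retroviruses of the building blocks for reverse transcription, mainly in cells that do not divide. The Schlafen family takes in SLFN11, which cleaves tRNA and blocks stalled replication forks, SLFN13, a tRNA and rRNA nuclease, SLFN12, which is activated through PDE3A, and SLFN5, a nuclear protein that represses transcription of herpes simplex virus. Several of these genes respond to type I interferon through promoter elements bound by interferon-activated transcription factors.

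The labels held for the introduced gene. TRIM40 had 0 reads in each control library, while Myc-TRIM40 cells had 272646 reads in experiment 1 and 110665 in experiment 2. Depth was similar, at 60954602 to 67424698 reads assigned to transcripts per library. All 8 colon epithelium markers, among them EPCAM, CDH1 and VIL1, were above 3 reads in every library, with a summed level of 6365 and 8961 FPKM (a read level corrected for transcript length and depth) in the controls and 7346 and 7651 FPKM in Myc-TRIM40. Among markers of blood, fibroblast and endothelial cells, CD3E, COL1A2 and DCN were at 3 reads or fewer in all libraries, and the leukocyte marker PTPRC reached at most 4 reads. The summed level of this marker list was 1359 and 1863 FPKM in the controls and 1408 and 1671 FPKM in Myc-TRIM40, and nearly all of it was LYZ, which intestinal epithelium also makes. As bulk RNA was measured, fewer expressing cells and less RNA per cell cannot be told apart.

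Of the 7 genes, SAMD9, SAMD9L, SAMHD1 and SLFN5 passed the filter on low counts, and all 4 were higher in Myc-TRIM40 in both experiments. Among 14517 tested genes with a ratio in both experiments, 28.3% were higher in both. SLFN11, SLFN12 and SLFN13 were at 3 reads or fewer in every library. The values of each gene are given first in the 4 libraries, then as the ratio within each experiment, and then as the estimate over both. The test was edgeR's quasi-likelihood test with the experiment as a block and Benjamini-Hochberg adjustment over 14868 genes. The study calls the experiments independent, but the sources used here do not say whether cells were transduced separately for each, so p-values measure only the spread between these samples, which may in part be technical. SAMD9 and SAMHD1 are among the genes that the study selected for their change in these same libraries, so their direction is not independent of that choice.

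**Figure D1:**
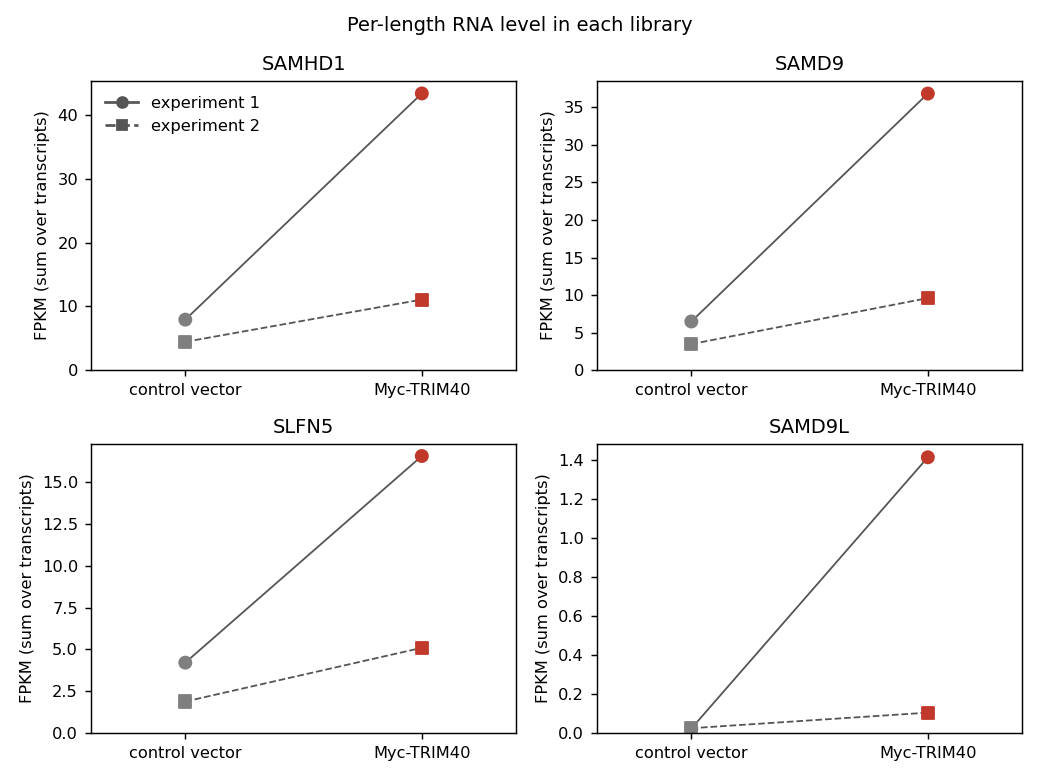
RNA level (y axis, FPKM summed over transcripts, a separate scale for each gene, each starting at 0) of SAMHD1, SAMD9, SLFN5 and SAMD9L in the control vector and Myc-TRIM40 libraries, where each point is 1 library and a line joins the libraries of an experiment. Every line goes up, and each Myc-TRIM40 library of experiment 1 lies above that of experiment 2, for SAMHD1 at 43.4 against 11.1 FPKM.

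SAMD9 (gene 54809, chr7:92728826-92747336 in hg19) had 2781 reads in the control library of experiment 1 and 15819 in its Myc-TRIM40 library. In experiment 2 it had 1656 reads in the control and 4226 in Myc-TRIM40. Both Myc-TRIM40 libraries were thus above both controls, and the controls differed from each other as well. Per length the level was 6.49 and 3.48 FPKM in the controls (4.98 ± 2.13, SD, n = 2) and 36.8 and 9.60 FPKM in Myc-TRIM40 (23.2 ± 19.3, SD, n = 2). After TMM normalization the ratio was 5.54-fold in experiment 1 and 2.53-fold in experiment 2, which are 2.47 and 1.34 on the log2 scale. The edgeR estimate over both experiments was a log2 fold change of 1.91 ± 0.30 (SE), with an unadjusted p of 0.000193 and an adjusted p of 0.143. SAMD9 was annotated with a pair of transcripts, and variant 1 (NM_017654) held 94.4% and 99.9% of its reads in the controls, 93.5% in Myc-TRIM40 of experiment 1 and all of them in Myc-TRIM40 of experiment 2, so most of the difference in reads lay in variant 1.

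SAMD9L (gene 219285, chr7:92759367-92777712 in hg19) lies 12 kb from SAMD9 and encodes its paralog. It was close to silent in control cells, with 10 reads in experiment 1 (exact 95% Poisson interval 4.80 to 18.4) and 13 in experiment 2 (6.92 to 22.2). The Myc-TRIM40 libraries had 608 reads (561 to 658) and 48 reads (35.4 to 63.6). These intervals cover counting error only, and those of the control and Myc-TRIM40 library did not overlap in either experiment. The level was 0.0223 and 0.0242 FPKM in the controls and 1.42 and 0.104 FPKM in Myc-TRIM40, so in every library it was below the other 3 tested members. Experiments differed most for this gene, at 59.2-fold in experiment 1 and 3.66-fold in experiment 2 (log2 ratios of 5.89 and 1.87). The edgeR log2 fold change was 4.01 ± 0.84 (SE), the unadjusted p was 0.00122 and the adjusted p was 0.356. Of 9 annotated SAMD9L transcripts, 7 were assigned reads with Myc-TRIM40 in experiment 1, while variant 1 (NM_152703) held all reads of the other 3 libraries. All 9 share the same outer coordinates, and how the reads were divided among them was not tested.

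SAMHD1 (gene 25939, chr20:35520227-35580246 in hg19), the dNTP triphosphohydrolase, was annotated with 1 transcript. It had 1583 reads in the control and 8680 in Myc-TRIM40 in experiment 1, and 985 and 2268 in experiment 2. The groups did not overlap. The level was 7.93 and 4.45 FPKM in the controls (6.19 ± 2.46, SD, n = 2) and 43.4 and 11.1 FPKM in Myc-TRIM40 (27.2 ± 22.9, SD, n = 2). The log2 ratio was 2.42 in experiment 1 and 1.19 in experiment 2, with an edgeR log2 fold change of 1.81 ± 0.31 (SE), an unadjusted p of 0.000324 and an adjusted p of 0.166. TLDC2, which overlaps SAMHD1 in the genome, had only 6 to 36 reads in the 4 libraries.

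SLFN5 (gene 162394, chr17:33570055-33600673 in hg19) was the one Schlafen member with an appreciable level. It had 1429 reads in the control and 5935 in Myc-TRIM40 in experiment 1, and 896 and 1934 in experiment 2. As for SAMD9 and SAMHD1, both Myc-TRIM40 libraries exceeded both controls. The level was 4.21 and 1.88 FPKM in the controls (3.04 ± 1.65, SD, n = 2) and 16.6 and 5.10 FPKM in Myc-TRIM40 (10.8 ± 8.12, SD, n = 2). The log2 ratio was 2.02 in experiment 1 and 1.10 in experiment 2, and the edgeR log2 fold change was 1.56 ± 0.27 (SE), with an unadjusted p of 0.00035 and an adjusted p of 0.174.

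The reads of SLFN5 were divided between 2 RefSeq transcripts, variant 1 (NM_144975, 4647 bases) and the longer variant 2 (NM_001330183, 9869 bases). Variant 1 held 72.8% of the reads in the control of experiment 1 (95% Wilson interval 70.5 to 75.1) and 64.9% in Myc-TRIM40 (63.7 to 66.1). In experiment 2 it held 39.1% in the control (35.9 to 42.3) and 59.7% in Myc-TRIM40 (57.5 to 61.8). The share therefore went down with Myc-TRIM40 in one experiment and up in the other, and the controls lay farther apart than either pair. Per length, variant 1 was 3.69-fold higher in experiment 1 and 3.57-fold higher in experiment 2, while variant 2 was 5.36-fold and 1.54-fold higher. Both transcripts were thus higher in Myc-TRIM40 in both experiments, and the difference in share between experiments was not tested.

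**Figure D2:**
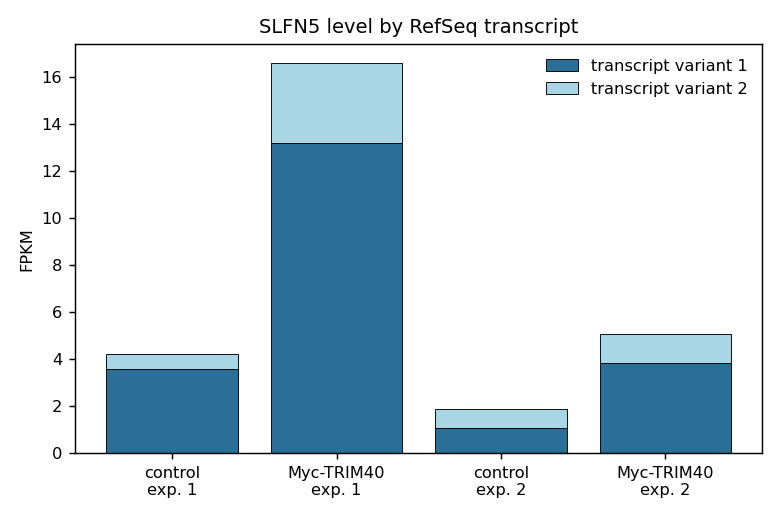
Level of SLFN5 (y axis, FPKM, stacked bars from 0) in each of the 4 libraries (x axis), divided into RefSeq transcript variants 1 and 2. Variant 1 made up 3.58 and 1.08 FPKM of the controls and 13.2 and 3.87 FPKM of Myc-TRIM40.

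SLFN11 had 3 reads with Myc-TRIM40 in experiment 1 (exact 95% Poisson interval 0.619 to 8.77) and 0 in the other 3 libraries. SLFN12 and SLFN13 had 0 reads in all 4. A count of 0 was taken to allow up to 3 reads, and 3 reads on the longest annotated transcript would be a level of about 0.00933 FPKM for SLFN11, 0.0195 FPKM for SLFN12 and 0.00581 FPKM for SLFN13 in the control library of experiment 1. This floor covers counting error only. A change of these 3 genes was not detectable at this depth, and none of them entered the test. Among the other Schlafen genes, SLFN12L and SLFN14 were at 0 reads in all libraries and SLFNL1 had 3 reads in 1 library, so 1 of 7 Schlafen genes looked up was above 3 reads in any library. Near-identical stretches of Schlafen paralogs can share reads, and the treatment of reads with several alignments is not given in the sources used here.

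**Figure D3:**
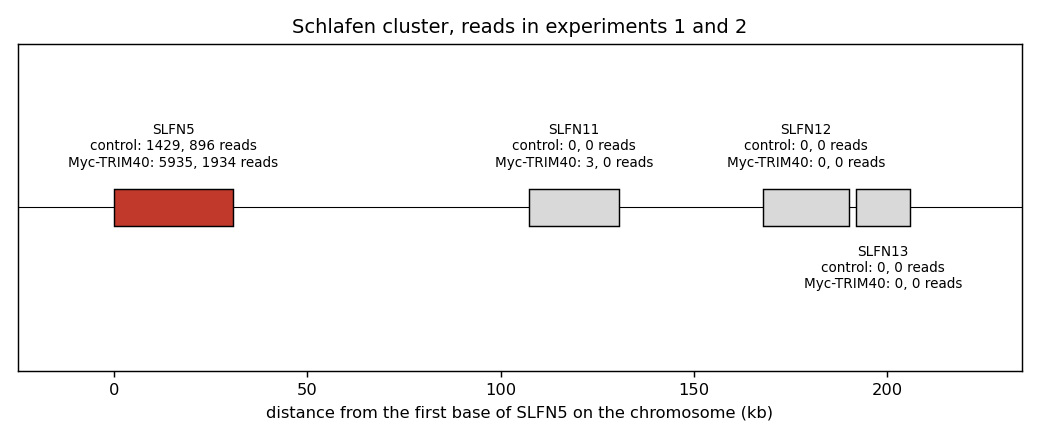
Positions of SLFN5, SLFN11, SLFN12 and SLFN13 on chromosome 17, as the distance in kb from the first base of SLFN5 (x axis), with the reads of each gene in the control and Myc-TRIM40 libraries of experiments 1 and 2. The genes span 205.8 kb, SLFN5 (red) carries nearly all of the reads, and SLFN11 begins 76.7 kb beyond its end.

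The levels kept the same order in all 4 libraries, SAMHD1 above SAMD9, SAMD9 above SLFN5 and SLFN5 above SAMD9L. SAMHD1 and SAMD9 lay close together, with a ratio of their FPKM between 1.15 and 1.28, and their ranges overlapped within each group. SLFN5 was 1.54 to 2.22 times below SAMD9, and within each group its range overlapped that of SAMD9 as well. SAMD9L stood apart from the other 3 in every library. The controls of the experiments also differed for the 3 expressed genes, since the control of experiment 2 had 0.536 of the level of experiment 1 for SAMD9, 0.561 for SAMHD1 and 0.447 for SLFN5. For SAMD9L, by contrast, this ratio was 1.08.

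Read against all genes, the 4 tested members did not pass the adjusted threshold in the edgeR test. At an adjusted p under 0.05, 0 of the 4 were called, where 6 of 14868 genes, or 0.0404%, were called higher. At an unadjusted p under 0.05 all 4 were higher, where 3.41% of genes were, and they ranked 19th (SAMD9), 28th (SAMHD1), 30th (SLFN5) and 51st (SAMD9L) by p of the 14868 genes. DESeq2 with the same block called all 4 higher at an adjusted p under 0.05, where it called 0.303% of genes higher, with adjusted p-values of 3.31e-07 for SAMD9, 8.59e-06 for SAMHD1, 9.36e-05 for SLFN5 and 9.67e-05 for SAMD9L. By the study's form of fold change, the ratio of FPKM + 1, SAMD9, SAMHD1 and SLFN5 were at least 1.5-fold higher in both experiments, as were 0.26% of the 27685 genes. The 4 tested members had both Myc-TRIM40 libraries above both controls in TMM-normalized CPM (reads corrected for depth), which was so for 11.0% of tested genes. In a fit with no block, leaving out the Myc-TRIM40 library of experiment 1 brought the 4 log2 fold changes to 0.88 (SAMD9), 2.01 (SAMD9L), 0.77 (SAMHD1) and 0.68 (SLFN5). Without the Myc-TRIM40 library of experiment 2 they were 2.82, 5.70, 2.74 and 2.33. Each of these fits leaves 1 Myc-TRIM40 library, so only the effect sizes of the members are given. The median log2 fold change of the 4 members over both experiments was 1.86, and that of all tested genes was 0.04.

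**Figure D4:**
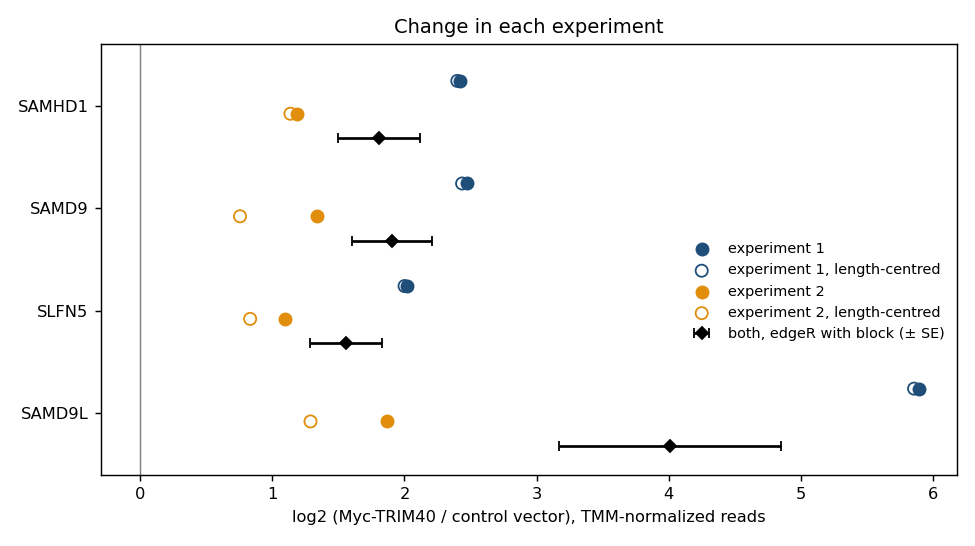
Log2 ratio of Myc-TRIM40 to control vector (x axis, TMM-normalized reads) for 4 members, in experiment 1 (blue) and experiment 2 (orange), with open circles after subtraction of the median ratio of genes of like length, and the edgeR estimate over both experiments with its standard error (black). All points lie to the right of 0, and the ratios of experiment 1, from 2.02 to 5.89, lie above those of experiment 2, from 1.10 to 1.87.

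All 4 genes were further from the control in experiment 1 than in experiment 2. The difference of the log2 ratios could not be tested with 1 library per group and experiment. TRIM40 itself had more reads in Myc-TRIM40 of experiment 1, and its part in this difference was not tested. Transcript length moved with the ratios of experiment 2, where the median log2 ratio ran from -0.54 in the shortest of 10 length classes of equal size to 0.58 in the longest, against -0.05 and 0.03 in experiment 1. SAMD9 (6855 bases) and SAMD9L (7166 bases) are in the longest class. After subtraction of the median of genes of like length, the log2 ratios of experiment 2 were 0.76 for SAMD9, 1.29 for SAMD9L, 1.14 for SAMHD1 and 0.83 for SLFN5, and those of experiment 1 were 2.44, 5.85, 2.40 and 2.00. With the length trend taken out of the edgeR fit, the log2 fold changes were 1.60 for SAMD9, 3.77 for SAMD9L, 1.77 for SAMHD1 and 1.42 for SLFN5, with unadjusted p-values of 0.0103, 0.0206, 0.00212 and 0.0042 and an adjusted p of 0.901 for each. This setting was chosen after the data were seen.

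The set of RefSeq promoter windows used here ran from 250 bases before the annotated start to 50 bases after it (assembly GRCh38.p14). It held a window for SAMD9, SAMD9L, SAMHD1, SLFN11 and SLFN12, 5 of the 7 members. The windows of SAMD9, SAMD9L and SAMHD1 are shown because these genes were higher in Myc-TRIM40 in both experiments and have a window. All are on the minus strand and written 5′ to 3′, and capitals mark a match to the interferon-stimulated response element (ISRE), searched here as a pair of GAAA runs with any 2 bases between them, or to the STAT site searched as TTCNNNGAA, on either strand. The windows are chr7:93117930-93118229 for SAMD9, chr7:93148336-93148635 for SAMD9L and chr20:36951659-36951958 for SAMHD1.
SAMD9: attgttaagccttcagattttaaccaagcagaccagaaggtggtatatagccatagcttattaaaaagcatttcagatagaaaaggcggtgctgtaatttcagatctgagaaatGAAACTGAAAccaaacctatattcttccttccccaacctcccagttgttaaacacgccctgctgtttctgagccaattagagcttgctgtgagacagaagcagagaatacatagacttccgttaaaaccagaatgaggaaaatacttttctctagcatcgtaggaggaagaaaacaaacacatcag
SAMD9L: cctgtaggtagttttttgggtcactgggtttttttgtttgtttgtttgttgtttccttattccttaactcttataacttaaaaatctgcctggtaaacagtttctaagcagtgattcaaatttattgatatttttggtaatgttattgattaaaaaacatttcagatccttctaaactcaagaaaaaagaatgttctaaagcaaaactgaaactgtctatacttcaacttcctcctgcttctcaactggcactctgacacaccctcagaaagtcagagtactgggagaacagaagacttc
SAMHD1: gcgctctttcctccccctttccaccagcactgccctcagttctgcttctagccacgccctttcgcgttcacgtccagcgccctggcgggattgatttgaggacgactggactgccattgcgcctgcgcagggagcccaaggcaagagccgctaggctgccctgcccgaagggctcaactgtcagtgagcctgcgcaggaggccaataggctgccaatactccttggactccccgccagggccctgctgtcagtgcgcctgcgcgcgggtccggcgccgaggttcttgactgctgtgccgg

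The SAMD9 window held 1 match to the response element, GAAACTGAAA, from 136 to 127 bases before the start, and none to the STAT site. The SAMD9L and SAMHD1 windows held neither motif, although both genes were higher in Myc-TRIM40. SLFN11, which had almost no reads, held 1 match to the STAT site, TTCCCGGAA, from 182 to 174 bases before its start, and SLFN12 held none. The matches did not overlap each other. In all 35116 windows of that length, the ISRE pattern was found in 3.57% and TTCNNNGAA in 7.66%. A match in letters is a description of the window and not a measured site, and no match says only that these letters are not in it.

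The genes whose pattern over the 4 libraries was most like that of a member were found by the Euclidean distance between log2 CPM values centred on their mean, among 14867 other tested genes. SAMHD1 and SAMD9 were each other's nearest gene, at a distance of 0.113 where the median gene lay at 2.42 from SAMD9. Next to SAMD9 came ULBP1, a ligand of the NKG2D receptor, at 0.251 and PARP14, an ADP-ribosyltransferase, at 0.288. SAMHD1 was followed by UBA7, which activates the ubiquitin-like protein ISG15, at 0.202 and by PARP14 at 0.224. For SLFN5 they were CYP2E1 at 0.157, PARP14 at 0.207 and IL2RG at 0.215, of which CYP2E1 and IL2RG were low, at no more than 0.574 and 1.29 CPM. ULBP1 was low as well, at 0.688 and 0.392 CPM in the controls and at most 3.24 CPM in Myc-TRIM40. SAMD9L had another set of neighbours, the RNA-sensing synthetase OAS2 at 0.318, the ISG15-conjugating enzyme UBE2L6 at 0.362 and EPSTI1 at 0.472. In the controls UBE2L6 was at 0.737 and 0.894 CPM and EPSTI1 at 0.41 and 0.722 CPM. SAMD9L lay 2.42 from SAMD9, 2.47 from SAMHD1 and 2.78 from SLFN5, where the median gene lay at 2.42, 2.35 and 2.03 from these genes. Seen from SAMD9L, however, the median gene lay at 4.62. By that measure SAMD9, SAMHD1 and SLFN5 ranked 53rd, 55th and 86th in nearness to SAMD9L among 14867 genes. These distances describe 4 libraries and were not tested.

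The nearest tested genes on the chromosome varied in direction. Of 6 such neighbours that are not members, 1 had an unadjusted p under 0.05 and was higher, where 3.41% of all tested genes were, and their log2 fold changes ran from -0.38 to 1.67. CDK6, 263 kb beyond SAMD9, had a log2 fold change of 0.23 ± 0.23 (SE, edgeR adjusted p = 0.892). HEPACAM2, 40.1 kb beyond SAMD9L, was the neighbour under 0.05, with 1.15 ± 0.45 (SE, unadjusted p = 0.0331, edgeR adjusted p = 0.888), and unlike SAMD9L its log2 ratio was larger in experiment 2 (1.86) than in experiment 1 (0.50). Beside SAMHD1 lay SOGA1, which went opposite ways in the experiments with log2 ratios of -0.50 and 4.31 (edgeR log2 fold change 1.67 ± 1.01, SE), and RBL1 with 0.18 ± 0.23 (SE). The Schlafen cluster was bordered by NLE1 with -0.28 ± 0.21 (SE) and LINC02001 with -0.38 ± 0.22 (SE), both lower in Myc-TRIM40 in both experiments but not past the threshold.

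None of the genes listed here that make and recycle the substrates of SAMHD1 passed the edgeR test as higher, at an unadjusted p under 0.05. Of 15 dNTP pool genes, which include the ribonucleotide reductase subunits RRM1 and RRM2, all were tested and 1 reached an unadjusted p under 0.05, being lower, as 1.13% of all tested genes were. That gene was DTYMK, which phosphorylates dTMP, with a log2 fold change of -0.66 ± 0.24 (SE, unadjusted p = 0.0261, edgeR adjusted p = 0.888). The list's median log2 fold change was -0.21. Its median log2 ratio was -0.04 in experiment 1 and -0.26 in experiment 2, and the length trend of experiment 2 was not taken out of these values. Of the 4 genes that set the phosphorylation of SAMHD1, the kinases CDK1 and CDK2, their cyclin CCNA2 and the inhibitor CDKN1A, only CDKN1A was under 0.05. It was higher, as were 3.41% of all tested genes at that p. Its log2 fold change was 0.88 ± 0.35 (SE, unadjusted p = 0.035, edgeR adjusted p = 0.888). CDKN1A had a log2 ratio of 1.64 in experiment 1 and 0.12 in experiment 2.

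Of 17 other restriction factors, 15 were tested, and an unadjusted p under 0.05 was reached by 5 that were higher and by none that was lower, where 3.41% of all tested genes were higher and 1.13% lower. None of them passed at an adjusted p in edgeR, and DESeq2 called IFI16 alone. IFI16, a nuclear DNA sensor, had the largest ratios of the 5 with a value in both experiments, 6.61 and 2.91 on the log2 scale, from 0.066 CPM and 0.11 CPM in the controls. MX2, which blocks nuclear entry of HIV-1, had log2 ratios of 5.85 and 2.58, close to those of SAMD9L in experiment 1. TRIM22 had 0 reads in 1 control, and its edgeR log2 fold change was 4.98 ± 1.24 (SE). ZC3HAV1, which targets CpG-rich viral RNA, and the capsid sensor TRIM5 were moderately higher, at 0.75 ± 0.22 and 0.50 ± 0.21 (SE). BST2, the tether of budding virions, went opposite ways, with log2 ratios of 2.14 and -0.22. The median over the list was 0.50.

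Of 9 genes that carry the interferon signal to response-element promoters, all tested, 4 had an unadjusted p under 0.05 and were higher in Myc-TRIM40. None was lower at that p, where 3.41% of all tested genes were higher and 1.13% lower. The receptor genes IFNAR1 and IFNAR2, the kinase genes JAK1 and TYK2, and IRF1 did not reach it. IRF9, STAT2 and IRF7 were among the 4 that did. Their edgeR log2 fold changes were 1.49 ± 0.32 for IRF9, 0.76 ± 0.24 for STAT2 and 1.26 ± 0.42 for IRF7 (SE). DESeq2 called IRF9 at an adjusted p under 0.05. In experiment 2 the log2 ratios of these 3 genes were 0.27 to 0.83, below those of SAMD9, SAMHD1 and SLFN5 in the same libraries. That difference was not tested, and the length trend of experiment 2 was not taken out of it. After subtraction of the median of genes of like length, SAMD9 was at 0.76, SAMHD1 at 1.14 and SLFN5 at 0.83 in experiment 2. Corrected ratios of IRF9, STAT2 and IRF7 are not given here.

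**Figure D5:**
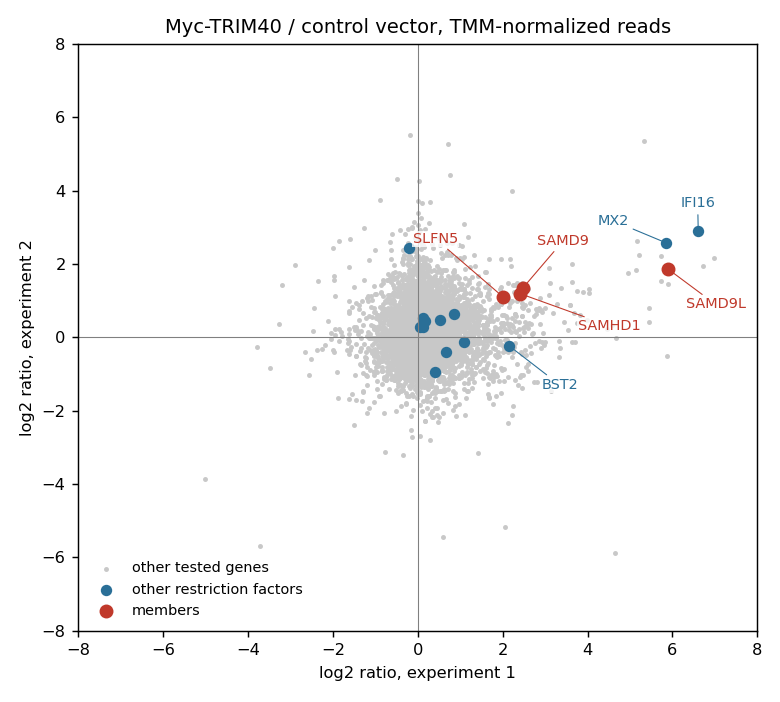
Log2 ratio of Myc-TRIM40 to control vector in experiment 1 (x axis) and experiment 2 (y axis), for the tested genes with reads in all libraries (grey), other restriction factors (blue) and the members (red). Of 14517 genes 54.8% had the same direction in both experiments and 28.3% were above 0 in both, where SAMD9, SAMD9L, SAMHD1 and SLFN5 also lie, while BST2 lies below 0 in experiment 2.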

How the data were processed

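RNA of 4 HT-29 libraries, made with a stranded mRNA kit, was measured by sequencing. The authors deposited 1 transcript table per experiment with an estimated read count, stored as whole numbers, and an FPKM for each RefSeq transcript. A TPM was given for experiment 2 only. The submitters' processing notes name HISAT2 2.1.0, StringTie 1.3.4d and hg19. Their roles, the counting step and its strand setting are not given in the sources used here. Estimated counts divide reads among overlapping transcripts, so transcript shares are less certain than gene sums.

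Deposited estimated counts, FPKM and TPM were summed per gene ID over 63714 transcripts to 27685 genes. edgeR 4.0.16 (R 4.3.3) was run with TMM normalization, filterByExpr (a cutoff of about 0.162 CPM), the experiment as a block and glmQLFTest, with Benjamini-Hochberg adjustment over 14868 genes at 0.05. Replicate numbers 1 and 2 were taken from the labels, and each deposited table holds the 2 libraries of 1 number. Same-numbered libraries deviated together (correlation of deviations from group means 0.40). With 1 residual degree of freedom, the spread was moderated across genes (prior degrees of freedom 7.44). Ratios within an experiment used TMM-normalized CPM with no added value. Fold rules used FPKM + 1 and 1.5-fold. The floor was 3 reads. An exact permutation test of 2 against 2 libraries cannot go below 0.333 (two-sided), so none was used. Scripts were tested on simulated data.

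The members, lists, markers and tests were chosen with earlier results of these data known. Named genes were the members, TRIM40, the 3 genes of nearest pattern, the nearest tested neighbours and list genes with an unadjusted p under 0.05 or as examples. BST2 was named after its values were seen. Some list genes are not reported here. Alternatives were DESeq2 1.42.0, limma 3.58.1 on log2(FPKM + 1), upper-quartile scaling, no filter, only NM_ transcripts, no block, libraries left out, other pseudocounts and thresholds, TPM, and a length correction. Promoters came from RefSeq (GRCh38.p14), and no coordinate was carried between builds.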

Additional observations from a re-analysis of the deposited data

Results flagged for a closer look

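The share of SLFN5 reads assigned to variant 1 moved in opposite directions in the experiments. Myc-TRIM40 minus control was -7.96 percentage points in experiment 1 and 20.6 percentage points in experiment 2. This difference was not tested, as each experiment holds 1 library per group.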

How the results depend on the processing

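SAMD9, SAMD9L, SAMHD1 and SLFN5 stayed higher in Myc-TRIM40 under every alternative run, and none reversed. Their log2 fold changes under DESeq2 were 1.88, 3.88, 1.78 and 1.53, and all 4 then passed the adjusted threshold. With no replicate block, their unadjusted p-values were 0.0197, 0.00882, 0.0229 and 0.0274 and their adjusted p was 1.00. Over all genes, edgeR called 9 (6 higher, 3 lower). It called 0 with no replicate block (unadjusted p under 0.05 for 128 higher and 25 lower genes, 54 adjusted calls by DESeq2 with the block), 54 with DESeq2, 0 with no filter (343 and 104 by unadjusted p), 3 with limma, 16 with only NM_ transcripts and 2 with the length trend taken out. With no block and 1 library left out, the lone library is assumed to vary like the others. The count of all genes was then 46 without control replicate 1, 26 without Myc-TRIM40 replicate 1 and 116 without Myc-TRIM40 replicate 2, and 12 without control replicate 2. Without Myc-TRIM40 replicate 1, the log2 fold changes of the 4 members were 0.88 (SAMD9), 2.01 (SAMD9L), 0.77 (SAMHD1) and 0.68 (SLFN5). Without Myc-TRIM40 replicate 2 they were 2.82 (SAMD9), 5.70 (SAMD9L), 2.74 (SAMHD1) and 2.33 (SLFN5). The cause of these changes was not tested. On log2(FPKM + 1) with limma, the change of the low gene SAMD9L was 0.67. SAMD9L joined the 3 genes at least 1.5-fold higher in both experiments with a pseudocount of 0.1. Depth limits SLFN11, SLFN12 and SLFN13, at 0 to 3 reads, and SAMD9L, at 10 and 13 control reads.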
